A study of Mus musculus with 9 samples.

Results

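Skeletal stem cells of the healing mouse femur were compared at 12 months of age with the same cells at 2 and 24 months, with both outer ages weighted equally, to show which genes stood highest or lowest at middle age and not at either end of the age range. For each gene the mean of the 3 libraries at 12 months was set against the average of the 2-month and 24-month means, on the deposited log2(TPM + 1) scale, where TPM is a relative abundance corrected for transcript length. Of 53607 rows in the table, 14501 were tested, those with 1 TPM or more in 3 or more of the 9 libraries. A gene is described as at a peak when all 3 of its 12-month values lay above the other 6 values, and as at a dip when all 3 lay below them. There were 444 genes at a peak and 644 at a dip, which are 3.06% and 4.44% of the genes tested and 1088 together (7.5%). The excess of dips turned under other scalings, with 681 peaks and 471 dips under the median of ratios, 646 and 489 under quantile normalization and 596 and 500 with length and GC trends removed.

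RNA was sequenced from mouse skeletal stem cells (mSSC) of C57BL/6J mice, isolated by flow cytometry from the fracture callus of the femur 10 days after the break. The gate took ITGAV-positive cells that lacked the blood cell proteins CD45 and TER119, the endothelial receptor TIE2, and THY1, 6C3 and CD105. Every group was fractured and its treatment field reads NA, so the groups differ in the labels only by age, 2, 12 or 24 months, with 3 libraries each. Each library came from 500 to 1000 sorted cells and a cDNA kit for very low input, and the labels do not say whether the libraries of an age are separate animals, so p-values measure the spread between these samples, which may be technical.

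Fracture callus forms first as cartilage in tissue with a poor blood supply and is later replaced by bone, and skeletal stem cells give rise to both the cartilage and the bone. Cells short of oxygen stabilise hypoxia-inducible factors, which switch on glycolytic enzymes. Cells short of amino acids raise the transcription factor ATF4, which switches on amino acid synthesis. Immediate early genes encode transcription factors and RNA-binding proteins whose transcripts appear within minutes of a growth factor, a mechanical load or another stimulus and decay quickly.

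Per library, 13387 to 13813 genes reached 1 TPM, and read depth is unknown because TPM does not carry it. Library 1 of 24 months was the least like the rest (mean correlation over genes 0.932, other libraries 0.953 to 0.962), and results are also given without it. The gated integrin gene Itgav ranged from 25.2 to 50.1 TPM over the 9 libraries. Transcripts of CD45 (Ptprc, highest value 0.281 TPM) and TIE2 (Tek, 0.301 TPM) were near 0. Thy1, Eng (CD105) and Enpep (6C3) did not exceed 4.27, 4.08 and 1.63 TPM in any library. These and Itgav were the 4 gate genes tested, and none was called in the test described next. Ptprc and Tek stayed below the abundance filter and were not tested. Of all genes tested, 1.01% were called.

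In the test of 12 months against the other ages, 146 genes passed an adjusted p of 0.05 (limma, Benjamini-Hochberg over all genes tested), which is 1.01% of the genes tested, and are referred to as called. Of these, 81 were higher at 12 months (0.559%) and 65 were lower (0.448%). With TPM rescaled by the median of ratios the split was 70.1% higher, against 55.5% as deposited. At an unadjusted p under 0.05 there were 2187 genes (15.1%). Of the called genes, 76 were also at a peak (0.524%) and 58 at a dip (0.4%), and 12 were called without standing outside the range of the other ages (0.0828%). The number called depended on single libraries. Leaving out each of libraries 1, 2 and 3 of 2 months in turn left 60, 49 and 40 calls. The same for 12 months left 26, 86 and 33, and for 24 months 209, 66 and 284.

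On the means, the called genes lay to the same side of both outer ages. All 81 called-higher genes lay above both the 2-month and the 24-month mean, and all 65 called-lower genes lay below both. The smaller of both differences was at least 50% of the larger, on the log2 scale, in 68 of the 81 and in 54 of the 65. The calls were made on the average of both differences, from the same values, and this selection favours such genes. These counts therefore describe the called genes and are not separate support. Against 2 months alone 105 genes were called (0.724%), 38 higher (0.262%) and 67 lower (0.462%). Against 24 months alone 66 were called (0.455%), 44 higher (0.303%) and 22 lower (0.152%). There were 22 genes called against both in the same direction (0.152%), 13 higher (0.0896%) and 9 lower (0.0621%). These comparisons share the 12-month libraries. With single libraries left out, the calls ranged from 17 (without library 3 of 2 months) to 220 (without library 1 of 24 months) against 2 months and from 2 (without library 2 of 24 months) to 345 (without library 3 of 24 months) against 24 months. Between 24 and 2 months 23 genes were called (0.159%), 13 higher (0.0896%) and 10 lower (0.069%) at 24 months. Of these, 4 were among the genes called higher at 12 months and 2 among those called lower. The values of 2 and 24 months did not overlap in 20.2% of the genes tested.

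The median log2 difference over all genes tested was -0.07, and the median size among called genes was 1.32 for those higher and 0.99 for those lower. Called-higher genes had shorter transcripts, with a median length of 834 bases against 1175.5 bases for all genes tested and 1404 for called-lower genes. With each library's trend on transcript length and GC content removed, 131 genes were higher and 212 were called in all. All 22 genes that passed the abundance filter only through the 12-month libraries were at a peak, as the filter requires of them, and 4 of them were called. Of the 128 called genes that are not predicted models, pseudogenes or ribosomal protein genes, 49 share annotated exon sequence with another gene, among them Gapdh, Bnip3, Mt2, Psph, Pck2, Aire, Dusp5, Bcl3, Irf1, Fdps and Bhlhe40, and as the strand setting of the counting is not given their values are uncertain to that extent. In bulk RNA, fewer cells of a type and less RNA per cell cannot be told apart.

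**Figure D1:**
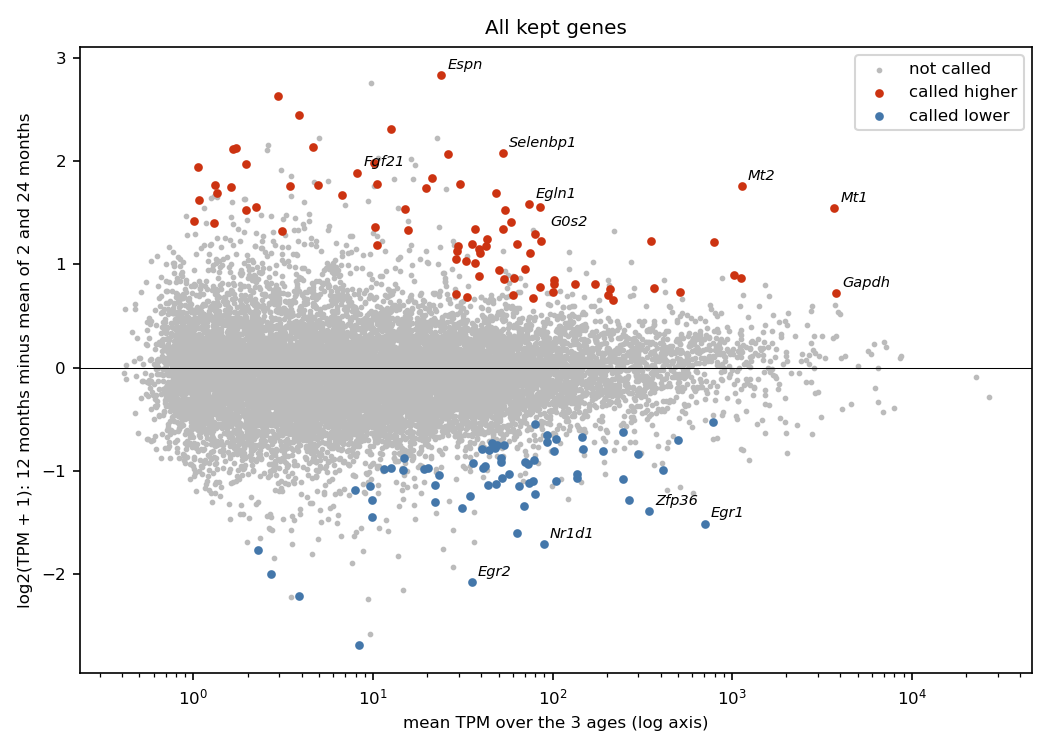
Each point is 1 of 14501 genes, with its mean TPM over the 3 ages on a log axis and, on the vertical axis, its log2(TPM + 1) at 12 months minus the average of 2 and 24 months. The 81 called-higher genes (red) and 65 called-lower genes (blue) span the abundance range, with Mt1, Mt2 and Gapdh among the most abundant called-higher genes and Egr1 and Zfp36 among the abundant called-lower genes.

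The smallest adjusted p-values belonged to Selenbp1 and G0s2. Selenbp1 (chromosome 3, 94933056 to 94944758, plus strand, ENSMUSG00000068874.13, GENCODE release M21 on GRCm38) encodes a selenium-binding protein that oxidises methanethiol. It stood at 143, 81.5 and 101 TPM in libraries 1, 2 and 3 of 12 months, 31.3, 31.3 and 29.6 TPM at 2 months and 18.8, 15.1 and 24.3 TPM at 24 months. Every 12-month value was more than 2 times the highest value of the other ages, and its log2 difference was 2.08 ± 0.19 (SE; limma adjusted p = 0.00173). G0s2 (chromosome 1, 193272161 to 193273217, minus strand, ENSMUSG00000009633.3), an inhibitor of the lipase that starts the breakdown of stored triglyceride, stood at 152, 145 and 161 TPM at 12 months, 40.5, 50.5 and 47.8 TPM at 2 months and 71.2, 54.3 and 47.6 TPM at 24 months. The 12-month libraries of G0s2 lay close together and above all others, with a log2 difference of 1.55 ± 0.15 (SE; limma adjusted p = 0.00173).

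The largest peaks among called genes that were selected for description by size of difference were mostly of low abundance. Car6, a secreted carbonic anhydrase, had the largest difference of these, 2.45 ± 0.36 (SE), with 12.96, 5.08 and 10.6 TPM at 12 months against 0 to 2.73 TPM over the other 6 libraries. Hsd17b1, the enzyme that makes oestradiol from oestrone, stood at 6.47, 2.92 and 4.11 TPM at 12 months and did not exceed 0.64 TPM elsewhere. Greb1, a gene first described as induced by oestrogen, stood at 8.33, 6.21 and 6.94 TPM at 12 months and 0.286 to 3.71 TPM elsewhere. Hsd17b1 passed the abundance filter only through the 12-month libraries, so its peak was fixed by the filter, and its log2 difference of 2.12 is given as a description. Greb1 was at a peak with a log2 difference of 1.76 ± 0.34 (SE; limma adjusted p = 0.0362).

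Arhgap27os2, a transcript antisense to Arhgap27, stood at 10.3, 14.3 and 7.34 TPM at 12 months and 1.02 to 2.798 TPM elsewhere. Because the strand setting is not known, its reads cannot be told apart from those of Arhgap27. Bend5, which encodes a BEN domain protein, stood at 21.4, 16.8 and 24.9 TPM at 12 months against 1.996 to 6.21 TPM elsewhere. Mgst2, a microsomal glutathione transferase that also makes leukotriene C4, stood at 30.3, 51.3 and 44.6 TPM at 12 months, 12.2, 13.98 and 10.9 TPM at 2 months and 7.07, 9.77 and 11.98 TPM at 24 months. All 3 genes were also called against each outer age alone. The differences of Mgst2 were 1.66 ± 0.25 from 2 months and 2.02 ± 0.25 from 24 months (SE; limma adjusted p = 0.0135 and 0.012).

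Other peaks of this size included genes of mitochondria and of cell contact. Mgarp, a mitochondrial protein involved in the transport of mitochondria, had 107, 76.4 and 85.1 TPM at 12 months and 15.01 to 37.6 TPM elsewhere, a log2 difference of 1.70 ± 0.22 (SE; limma adjusted p = 0.00672). Cox6a2, the muscle isoform of a cytochrome c oxidase subunit, had 4.64, 5.15 and 4.197 TPM at 12 months and 0 to 2.49 TPM elsewhere, and overlaps Itgad in the annotation, so its value is uncertain. Stbd1, which binds glycogen, had 50.6, 17.8 and 48.2 TPM at 12 months, of which library 2 was nearest to the range of 7.33 to 12.97 TPM at the other ages. Gjd3, a gap junction protein, had 5.15, 2.29 and 2.496 TPM at 12 months and 0 to 1.54 TPM elsewhere, and Nacad, which carries a domain of the nascent polypeptide-associated complex, 26.9, 13.6 and 21.5 and 1.94 to 10.3 TPM. Aire, known as the autoimmune regulator of the thymus, had 2.69, 3.03 and 2.61 TPM at 12 months against 0.0755 to 0.448 TPM elsewhere and was picked out after its values were seen. It too passed the filter only through the 12-month libraries, so its peak was fixed by the filter.

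**Figure D2:**
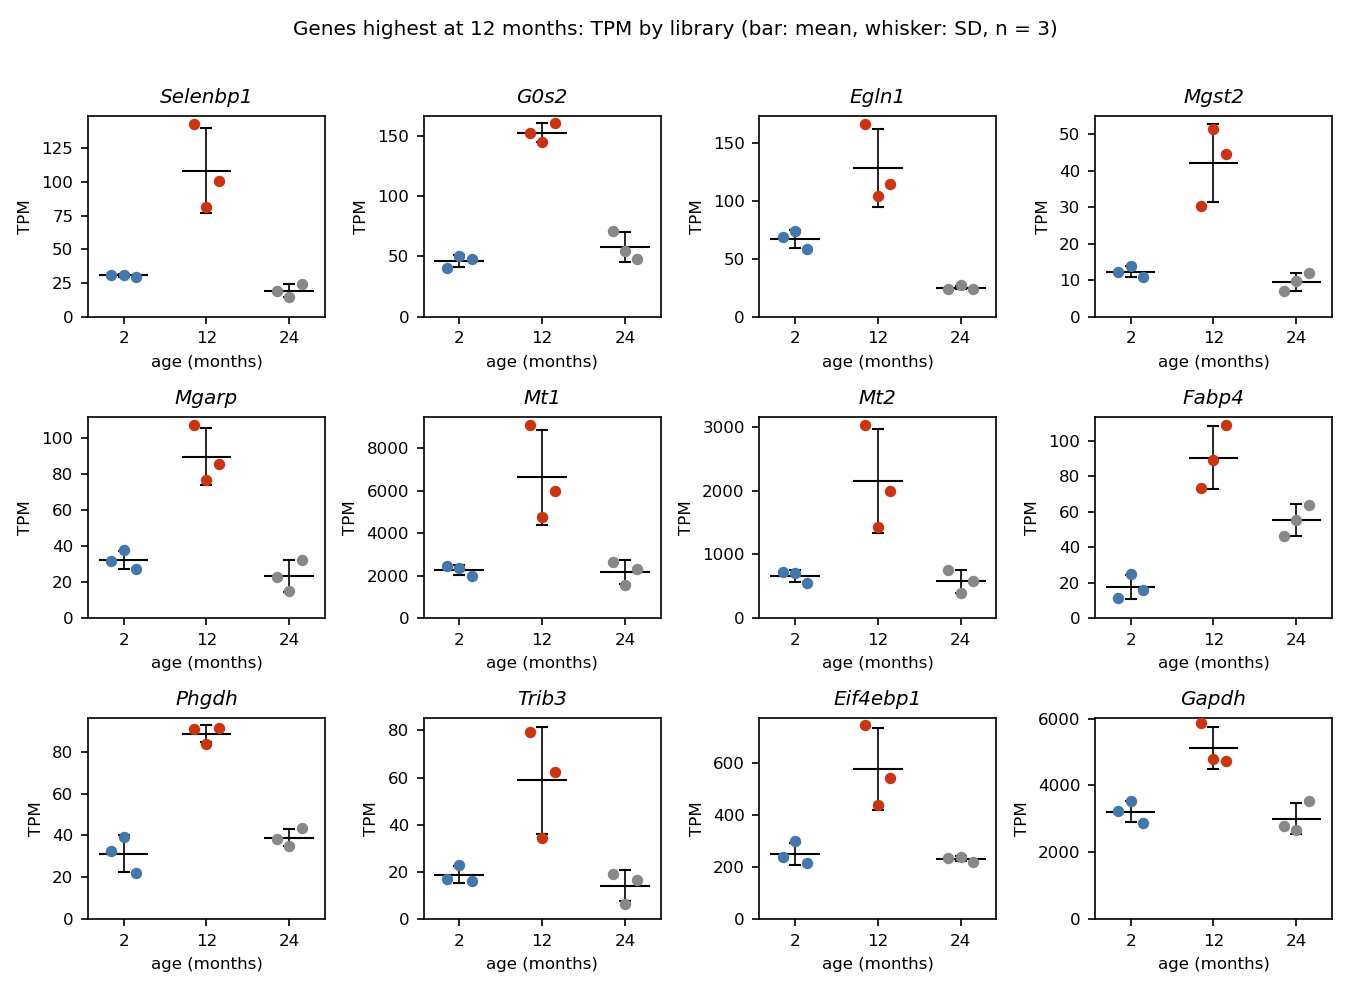
TPM of 12 genes called higher and at a peak at 12 months, by age in months, with each library as a point, the mean of 3 as a bar and the SD as a whisker. In the panels of Selenbp1, G0s2 and Egln1 the 3 points at 12 months lie above all 6 others, while the spread among them is wide for Mt1, Mt2 and Trib3, with library 2 lowest.

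Genes of the integrated stress response, which cells use to restore amino acid supply, gave called members on the higher side at 12 months. Of 19 members tested, 5 were called higher and none lower, 5 were at a peak, and 15 had a positive difference, with a list median of 0.55 against -0.07 for all genes. The shares over all genes tested were 0.559% called higher and 3.06% at a peak, and 5985 of 14501 had a positive difference. Phgdh (chromosome 3, 98313170 to 98339990, minus strand, ENSMUSG00000053398.11), the first enzyme of serine synthesis, stood at 90.8, 83.99 and 91.2 TPM at 12 months, 32.4, 39.4 and 21.99 TPM at 2 months and 38.2, 35.1 and 43.3 TPM at 24 months. Its 12-month values were about equal and about 2 times the highest of the other ages, with a log2 difference of 1.34 ± 0.17 (SE; limma adjusted p = 0.00672). Asns, which makes asparagine, stood at 169.7, 82.6 and 149.8 TPM at 12 months, 43.7, 72.6 and 60.7 TPM at 2 months and 33.3, 49.3 and 58.9 TPM at 24 months. For Asns the log2 difference was 1.30 ± 0.25 (SE; limma adjusted p = 0.037). All 3 values of Asns lay above the other 6, although library 2 exceeded the highest of them only narrowly.

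The RefSeq promoter of Asns (GRCm38.p6) carried the motif TGATGNAA, which holds the core of sites bound by ATF4. Of all 32851 promoter windows of 250 bases before a gene's start, from genes tested or not, 3.45% carried this motif. A stretch of 30 bases around it (chr6:7693214-7693243, minus strand) is shown 5′ to 3′ with the match, at positions -23 to -16 from the start, in capitals.
Asns: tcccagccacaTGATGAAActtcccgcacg

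In the other 3 called members library 1 was the highest and library 2 the lowest at 12 months. Trib3, a pseudokinase induced in amino acid shortage, stood at 79.4, 34.4 and 62.5 TPM at 12 months and 6.57 to 22.9 TPM elsewhere, a difference of 1.78 ± 0.32 (SE; limma adjusted p = 0.029). Shmt2, which takes a carbon unit from serine in mitochondria, stood at 176, 115 and 142 TPM and 70.3 to 96.2 TPM, and its exons overlap Ndufa4l2. Fgf21, a hormone of the fasting response, was called (difference 1.89 ± 0.40, limma adjusted p = 0.0496) with 19.4, 7.89 and 19.01 TPM at 12 months, 5.57, 10.1 and 7.81 TPM at 2 months and 0.0408, 1.13 and 2.57 TPM at 24 months. For Fgf21 library 2 of 12 months lay inside the 2-month range, so it was not at a peak, and the difference from 24 months (2.95) exceeded that from 2 months (0.83).

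Atf4 itself was not called, with 477, 393 and 451 TPM at 12 months, 389, 398 and 392 TPM at 2 months and 299, 313 and 341 TPM at 24 months. For Atf4 the log2 difference was 0.31 ± 0.11 (SE; limma adjusted p = 0.22). Ddit3, which encodes the stress factor CHOP, had a difference of 0.37 ± 0.18 (limma adjusted p = 0.371), and Mthfd2, a mitochondrial folate enzyme, was at a peak with 0.55 ± 0.15 (limma adjusted p = 0.106). Outside the list, and picked out after the values were seen, other called-higher genes act in the same pathways. Psph, the last enzyme of serine synthesis, had 64.4, 32.2 and 39.97 TPM at 12 months and 19.2 to 21.9 TPM elsewhere, and Sars, which loads serine onto its transfer RNA, had 158, 115 and 164 and 60.9 to 89.6 TPM. Pck2, the mitochondrial enzyme that makes phosphoenolpyruvate, had 116, 87.98 and 100.05 TPM at 12 months and 27.7 to 56.2 TPM elsewhere. Pck2 had a log2 difference of 1.20 ± 0.17 (SE; limma adjusted p = 0.00962). Eif4ebp1, a repressor of cap-dependent translation, had 744, 436 and 542 TPM at 12 months, 238, 298 and 215 TPM at 2 months and 233, 239 and 220.3 TPM at 24 months, and was called against each outer age alone (differences 1.17 and 1.28; limma adjusted p = 0.0219 and 0.0255). With single libraries left out, the number of called-higher list members ranged from 1 to 6, and it was 5 without library 1 of 24 months. It was 0 without library 1 of every age or without a filter, and 1 without the variance trend.

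Of 36 genes of glycolysis and the response to hypoxia, 4 were called higher and none lower, 13 were at a peak and 2 at a dip, and the median difference was 0.45. Among all genes tested, 0.559% were called higher, 3.06% were at a peak and 4.44% at a dip. Egln1 (chromosome 8, 124908587 to 124949324, minus strand, ENSMUSG00000031987.6), the prolyl hydroxylase that marks hypoxia-inducible factors for degradation in the presence of oxygen, stood at 167, 104 and 115 TPM at 12 months, 69.3, 73.9 and 58.6 TPM at 2 months and 24.5, 27.3 and 24.4 TPM at 24 months. The 3 ages did not overlap, in the order 12, 2 and 24 months, and the log2 difference was 1.58 ± 0.16 (SE; limma adjusted p = 0.0025). Bnip3, a receptor for the removal of mitochondria, stood at 1637, 868 and 1313 TPM at 12 months, 596, 686 and 648 TPM at 2 months and 331, 342 and 729 TPM at 24 months. For Bnip3 the log2 difference was 1.22 ± 0.25 (SE; limma adjusted p = 0.0494). Library 3 of 24 months and library 2 of 12 months were the closest values of Bnip3 between the groups. Ankrd37, a known target of hypoxia-inducible factor, stood at 90.02, 55.7 and 42.7 TPM at 12 months and 19.7 to 39.4 TPM elsewhere, and its exons overlap Lrp2bp and Ufsp2.

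Gapdh, the glycolytic enzyme often used as a reference gene, stood at 5856, 4784 and 4738 TPM at 12 months, 3247, 3522 and 2881 TPM at 2 months and 2788, 2679 and 3531 TPM at 24 months. All 3 values lay above the other 6, with a difference of 0.72 ± 0.15 (SE; limma adjusted p = 0.0485). Further enzymes of the pathway were at a peak without passing the test: Tpi1 with 1456 to 1567 TPM at 12 months against 784 to 1255 TPM, Ldha with 3335 to 3622 against 1978 to 2947 TPM, Pgk1 with 641 to 738 against 313 to 603 TPM and Eno1 with 4631 to 5090.5 against 2523 to 4137 TPM. Their log2 differences lay between 0.55 (Ldha) and 0.70 (Tpi1), with limma adjusted p of 0.0554 for Tpi1, 0.103 for Ldha, 0.106 for Pgk1 and 0.119 for Eno1. Car9, a carbonic anhydrase of hypoxic cells, was at a peak with 48.6, 37.7 and 42.7 TPM against 4.995 to 29.98 TPM elsewhere (limma adjusted p = 0.102). Hk2, the hexokinase at the entry of the pathway, went the other way and was at a dip, with 19.4, 15.6 and 24.1 TPM at 12 months and 24.4 to 38.5 TPM elsewhere. Hk2 had a log2 difference of -0.56 ± 0.16 (SE; limma adjusted p = 0.128).

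The summed level of the 36 genes was 23241 to 27849 TPM at 12 months, 17182 to 19985 TPM at 2 months and 13722 to 20812 TPM at 24 months, so the 12-month libraries did not overlap the others. The number called higher ranged from 1 to 11 with single libraries left out and was 1 without library 1 of 24 months. It was 0 with the other 6 libraries as 1 group. It was 1 without library 1 of every age, with an offset of 0.1 TPM or without the variance trend. Among genes of oxidative phosphorylation none of 48 was called, the lowest limma adjusted p was 0.232, and the median difference was 0.10. Only 1.01% of all genes tested were called.

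Metallothioneins, small proteins that bind zinc and copper and that metals, glucocorticoids and oxidants induce, were among the most abundant called genes. Mt1 (chromosome 8, 94179082 to 94180327, plus strand, ENSMUSG00000031765.8) stood at 9094, 4778 and 5993 TPM at 12 months, 2466, 2349 and 1985 TPM at 2 months and 2658, 1536 and 2319 TPM at 24 months. Mt2 (chromosome 8, 94172664 to 94173568, plus strand, ENSMUSG00000031762.7) stood at 3030.04, 1429 and 1993 TPM at 12 months, 719, 714 and 543 TPM at 2 months and 755, 399 and 576 TPM at 24 months. For both genes the order at 12 months was library 1, 3 and 2, and all 3 exceeded every other library. Together they made up 1.21%, 0.621% and 0.799% of the TPM of the 12-month libraries and between 0.193% and 0.341% of the others. The log2 differences were 1.55 ± 0.22 for Mt1 and 1.76 ± 0.24 for Mt2 (SE; limma adjusted p = 0.0109 and 0.00932), and both were called against each outer age alone.

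The RefSeq promoter of Mt2 (GRCm38.p6, 250 bases before the start, chr8:94172368-94172617, plus strand) held 3 matches to the core TGCGCNC or TGCACNC, at positions -223 to -217, -128 to -122 and, on the opposite strand, -50 to -44 from the start. This core is part of the elements that the metal-sensing factor MTF1 binds, and 21.4% of all windows hold it on either strand. The sequence is shown 5′ to 3′ with the matches in capitals.
Mt2: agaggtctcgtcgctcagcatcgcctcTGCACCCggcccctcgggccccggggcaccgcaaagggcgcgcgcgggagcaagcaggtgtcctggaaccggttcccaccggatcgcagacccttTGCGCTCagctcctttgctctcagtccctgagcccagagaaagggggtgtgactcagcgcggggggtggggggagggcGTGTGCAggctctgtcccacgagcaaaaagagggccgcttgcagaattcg

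Among the 27 antioxidant and metallothionein genes, 3 were called higher (Mt1, Mt2 and Selenbp1) and 1 lower, 5 were at a peak and 2 at a dip, and the median difference was 0.09. The shares over all genes tested were 0.559% called higher, 0.448% called lower, 3.06% at a peak and 4.44% at a dip. The gene called lower was Srxn1, sulfiredoxin, which repairs oxidised peroxiredoxins, with 43.8, 30.4 and 45.8 TPM at 12 months, 101, 117 and 119 TPM at 2 months and 58.2, 93.02 and 56.6 TPM at 24 months. For Srxn1 the log2 difference was -1.12 ± 0.19 (SE; limma adjusted p = 0.0213). Hmox1, the haem-degrading enzyme, was at a peak with 97.7, 78.3 and 119.5 TPM against 41.5 to 74.2 TPM elsewhere and did not pass the test (difference 0.80 ± 0.18, limma adjusted p = 0.0567).

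Of 22 genes of fatty acid handling and adipocytes, 4 were called higher and none lower, 6 were at a peak and 2 at a dip, and the median difference was 0.25. Among all genes tested, 0.559% were called higher, 3.06% were at a peak and 4.44% at a dip. Against 2 months alone the list median was 0.57 and against 24 months -0.06. Among the 4 was Hsd17b1, a steroid enzyme that entered the test only through its 12-month values, and without such genes 3 of 21 members were called. Fabp4, a fatty acid carrier of adipocytes, macrophages and capillary endothelium, stood at 73.2, 89.5 and 109 TPM at 12 months, 46.5, 55.4 and 64.1 TPM at 24 months and 11.3, 24.7 and 15.9 TPM at 2 months. The 3 ages did not overlap and 24 months lay nearer to 12 months, with differences of 0.69 ± 0.26 from 24 months and 2.37 ± 0.26 from 2 months (SE; limma adjusted p = 0.249 and 0.00245). Fabp5, a related carrier, had the same order, with 539.8, 472 and 463 TPM at 12 months, 351, 422 and 409.5 TPM at 24 months and 193, 249 and 192 TPM at 2 months. Rbp4, the plasma carrier of retinol, stood at 1777, 1232 and 1746 TPM at 12 months, 1193, 926 and 1128 TPM at 2 months and 692, 844 and 533 TPM at 24 months, so here 2 months lay nearer (difference 0.87 ± 0.18, limma adjusted p = 0.0434).

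Defining adipocyte genes were at or near 0, with at most 0.231 TPM for Adipoq, 0.522 TPM for Plin1 and 0 for Lep in any library. Of macrophage and monocyte markers 9 were tested and none called, 6 had a positive difference, and the median was 0.50, while the defining gene Adgre1 reached at most 0.298 TPM. Of endothelial markers 9 were tested and none called, 5 had a positive difference, and the median was 0.29. Cdh5 reached at most 0.766 TPM, while Flt1 reached 9.40 and Vwf 2.20 TPM, both in library 1 of 24 months. Only 1.01% of all genes tested were called, so by that share lists of this size may hold no called gene. Endothelial markers summed to 20.2 to 49.1 TPM at 12 months, 21.2 to 40.4 TPM at 2 months and 35.04 to 64.7 TPM at 24 months, and the part of either cell type was not tested. Dgat2, which makes triglyceride, was at a peak with 21.2, 8.32 and 11.6 TPM against 4.51 to 5.78 TPM elsewhere and did not pass the test (limma adjusted p = 0.0627). Without library 1 of 24 months 3 members of this list were called, and with single libraries left out the number ranged from 0 to 5. It was 0 without library 1 of every age.

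Further called-higher genes outside the lists, picked out after the values were seen, encode secreted peptides and proteins of mitochondria, RNA and iron handling. Apln, which encodes the peptide ligand of the apelin receptor, stood at 66.1, 39.6 and 82.6 TPM at 12 months, 30.4, 33.2 and 27.7 TPM at 2 months and 14.97, 16.7 and 21.6 TPM at 24 months. Adm2, a peptide hormone related to adrenomedullin, stood at 18.8, 9.79 and 10.9 TPM at 12 months and 1.32 to 4.96 TPM elsewhere. Their log2 differences were 1.34 ± 0.22 for Apln and 1.67 ± 0.29 for Adm2 (SE; limma adjusted p = 0.0197 and 0.0214). Hax1, a mitochondrial protein that protects from cell death, had 206, 169.7 and 184 TPM against 80.1 to 123 TPM, and Fam162a, a mitochondrial protein induced in hypoxia, 1816, 1426 and 1212 against 691 to 1012 TPM. Cirbp, an RNA-binding protein induced by mild cold, had 99.4, 130.1 and 192 TPM at 12 months against 40.6 to 73.3 TPM, and Hfe, a regulator of iron uptake, 56.1, 52.95 and 60.9 against 15.97 to 32.8 TPM. The class I histocompatibility genes H2-T23 and H2-Q7 were at a peak with differences of 0.89 ± 0.17 and 1.18 ± 0.24 (SE; limma adjusted p = 0.037 and 0.0418), and genes of this family share sequence, so their values are uncertain.

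The gene with the largest called difference of all, Espn, was not at a peak. Espn, an actin-bundling protein of hair cell stereocilia, stood at 77.1, 19.6 and 61.7 TPM at 12 months, 21.9, 16.7 and 10.8 TPM at 2 months and 0, 1.13 and 6.65 TPM at 24 months. Library 2 of 12 months lay inside the range of 2 months, and the difference from 24 months, 4.20, was larger than that from 2 months, 1.47. Among small RNA genes, Mir23a was called higher and Mir3109, Rnu5g and Snord91a lower. Mir23a stood at 7.95, 4.096 and 1.94 TPM at 12 months, 0, 0 and 1.56 TPM at 2 months and at 0 in all 3 libraries at 24 months.

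The called immediate early genes were all lower at 12 months. Of 38 tested, 9 were called lower and none higher, 14 were at a dip and none at a peak, and all 38 differences were negative, with a median of -0.64 against -0.07 for all genes. The shares over all genes tested were 0.448% called lower and 4.44% at a dip. Egr1, a zinc finger transcription factor, stood at 293, 282 and 331 TPM at 12 months, 1085, 1047 and 1271 TPM at 2 months and 517, 866 and 638 TPM at 24 months. The 3 ages did not overlap, with 12 months lowest and 2 months highest, and the log2 difference was -1.51 ± 0.16 (SE; limma adjusted p = 0.0025). Egr2 (chromosome 10, 67535475 to 67542188, plus strand, ENSMUSG00000037868.15), its paralogue, stood at 9.31, 8.49 and 11.2 TPM at 12 months, 50.1, 42.7 and 95.7 TPM at 2 months and 24.3, 46.2 and 31.2 TPM at 24 months. Egr2 had the largest difference of the called genes at a dip that were selected by size and are not small RNAs, -2.08 ± 0.26 (SE; limma adjusted p = 0.00672), and its highest 12-month value was below 50% of its lowest value at the other ages.

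Genes of RNA-binding proteins that destabilise AU-rich transcripts were among the called members. Zfp36 (chromosome 7, 28376784 to 28380253, minus strand, ENSMUSG00000044786.6), which encodes tristetraprolin, stood at 174, 144 and 168 TPM at 12 months, 541, 429 and 549 TPM at 2 months and 275, 477 and 357 TPM at 24 months. Its 12-month values lay below all others, with a difference of -1.39 ± 0.17 (SE; limma adjusted p = 0.00634). Zfp36l2, another member of this family, stood at 14.8, 9.65 and 11.3 TPM at 12 months and 20.8 to 29.3 TPM elsewhere. Zfp36l2 had a log2 difference of -0.97 ± 0.19 (SE; limma adjusted p = 0.0362). Csrnp1, a nuclear protein induced by growth factors and axin, stood at 29.6, 32.1 and 38.9 TPM at 12 months, 88.9, 102 and 109.8 TPM at 2 months and 83.96, 75.8 and 62.7 TPM at 24 months. For Csrnp1 the log2 difference was -1.34 ± 0.15 (SE; limma adjusted p = 0.00315). Annotated exons of Zfp36 and Csrnp1 overlap unnamed gene models, so a part of their reads may be uncertain.

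The orphan nuclear receptors Nr4a1 and Nr4a2 were called lower, with log2 differences of -1.08 ± 0.19 and -1.10 ± 0.20 (SE; limma adjusted p = 0.0215 and 0.0269). Nr4a1 stood at 102, 135 and 177 TPM at 12 months, 182, 189.9 and 262 TPM at 24 months and 329, 403 and 442 TPM at 2 months, so the 24-month libraries began just above the highest 12-month library. Fosb, a subunit of the factor AP-1, was called without being at a dip, with 13.02, 19.8 and 15.1 TPM at 12 months, 20.5, 38.4 and 17.9 TPM at 24 months and 69.6, 55.1 and 60.98 TPM at 2 months. The difference of Fosb from 2 months was -1.90 ± 0.27 and that from 24 months -0.59 ± 0.27 (SE; limma adjusted p = 0.0101 and 0.342). Myc, Ier2, Ier5 and Fosl1 were at a dip with differences of -0.85, -0.80, -0.60 and -0.70 and did not pass the test (limma adjusted p = 0.055, 0.0535, 0.0535 and 0.0592).

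The summed level of all 38 immediate early genes was 11280.5 to 12787 TPM at 12 months. It was 13604 to 17627 TPM at 24 months and 20191 to 24384 TPM at 2 months. The sum takes in the members that were not called and weighs abundant genes most. The ranges did not overlap, and 12 months lay nearer to 24 than to 2 months, with a list median of -0.36 for 12 minus 24 months and -0.84 for 12 minus 2 months. Without library 1 of 24 months 14 members were called lower, with single libraries left out the number ranged from 4 to 14, and without library 1 of every age it was 2.

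**Figure D3:**
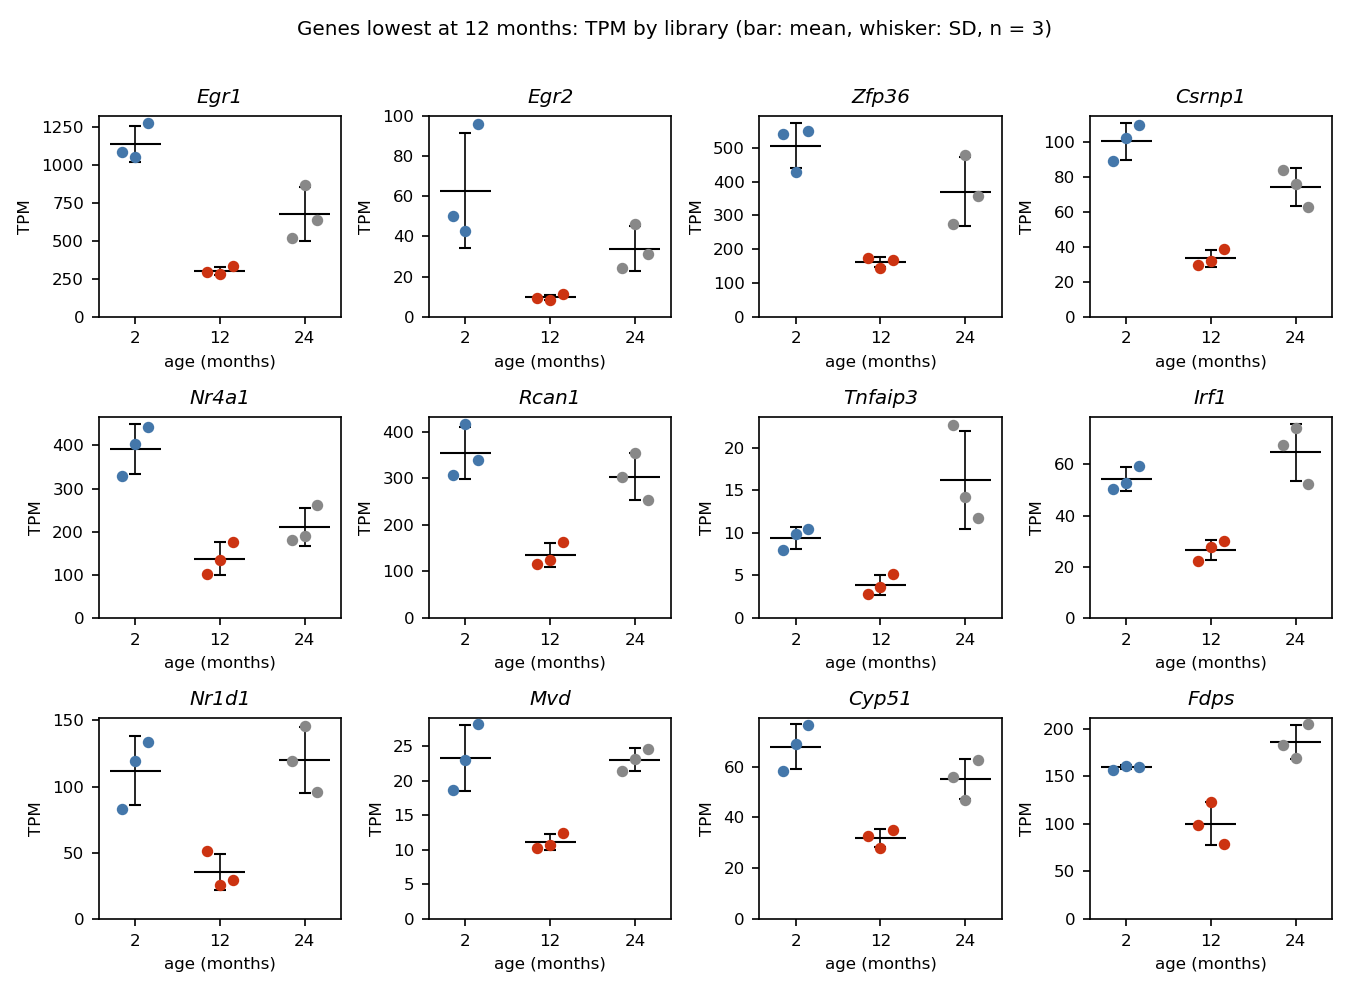
TPM of 12 genes at a dip at 12 months, by age in months, with each library as a point, the mean of 3 as a bar and the SD as a whisker. The 3 points at 12 months lie below all 6 others in each panel, with Egr1 at 282 to 331 TPM against 517 to 1271 TPM, and the 2-month and 24-month points overlap in some panels, such as that of Nr1d1.

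Serum response factor binds the CArG box, a motif named for its letters at the ends and the A and T run between them, in front of several immediate early genes. The promoters of Egr2 and Zfp36 held it, and in all it was found in 10.9% of the 55 windows of called-lower genes, in 3.28% of the 61 windows of called-higher genes and in 1.47% of all windows. The 3 called-lower genes with it were Egr2, Zfp36 and Dusp5, and 4 of the 6 windows were alternative windows of Egr2, which has 5. Counted by gene, 3 of the 42 called-lower genes with a window held the box. For Egr2 1 of these, 250 bases before the start (chr10:67537619-67537868, plus strand), and for Zfp36 a stretch of 30 bases (chr7:28379267-28379296, minus strand) are shown 5′ to 3′ with the box in capitals, at positions -72 to -63 in Egr2 and -58 to -49 in Zfp36.
Egr2: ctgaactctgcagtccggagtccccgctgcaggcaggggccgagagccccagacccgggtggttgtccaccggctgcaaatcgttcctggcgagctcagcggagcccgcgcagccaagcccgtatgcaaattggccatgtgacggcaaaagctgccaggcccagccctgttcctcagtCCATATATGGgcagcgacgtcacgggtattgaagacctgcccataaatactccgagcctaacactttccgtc
Zfp36: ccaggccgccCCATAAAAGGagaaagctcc

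Feedback inhibitors of MAP kinase signalling, many of which are transcribed when the pathway is active, had 16 negative differences among 16 members and a median of -0.40, but a single called member. Among all genes tested, 1.01% were called. Dusp5, a nuclear phosphatase of ERK, stood at 49.6, 27.9 and 42.4 TPM at 12 months, 58.01, 86.6 and 51.3 TPM at 24 months and 123, 136 and 143 TPM at 2 months. Dusp5 had a log2 difference of -1.23 ± 0.20 (SE; limma adjusted p = 0.0202). Its 12-month libraries lay just below the lowest 24-month library. Dusp1, a phosphatase of p38 and JNK, was not called, with 976, 1021 and 1380.3 TPM at 12 months and 1096 to 2069 TPM elsewhere. For Dusp1 the log2 difference was -0.51 ± 0.15 (SE; limma adjusted p = 0.13). Rcan1 (chromosome 16, 92391953 to 92470867, minus strand, ENSMUSG00000022951.16), an inhibitor of calcineurin that calcineurin itself induces, is in none of the lists. It stood at 116, 125 and 164 TPM at 12 months, 308, 417 and 340.4 TPM at 2 months and 304, 354 and 255 TPM at 24 months, with the outer ages overlapping and 12 months below both. Its differences were -1.40 ± 0.18 from 2 months and -1.17 ± 0.18 from 24 months (SE; limma adjusted p = 0.00685 and 0.0255).

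Genes of the NF-kB pathway, which switches on inflammatory transcription and its own inhibitors, gave called members on the lower side at 12 months. Of 22 members tested 3 were called lower and none higher, 10 were at a dip and none at a peak, and the median difference was -0.58. Differences were negative in 18 members and positive in 4, and ranged from -1.63 to 1.73. Over all genes 0.448% were called lower and 4.44% were at a dip. The calls of this list fell to 0 without library 2 or 3 of 2 months or without any single library of 12 months, and ranged from 0 to 5 over all such omissions. They were also 0 without library 1 of every age. Tnfaip3, the deubiquitinase A20 that shuts the pathway off, stood at 2.79, 3.69 and 5.19 TPM at 12 months, 7.97, 9.82 and 10.5 TPM at 2 months and 22.6, 14.2 and 11.7 TPM at 24 months. The ages did not overlap, in the order 12, 2 and 24 months, and the difference was -1.45 ± 0.25 (SE; limma adjusted p = 0.0213). Bcl3, a nuclear partner of the p50 and p52 subunits, stood at 36.9, 31.8 and 35.5 TPM at 12 months and 62.2 to 121 TPM elsewhere. Bcl3 had a log2 difference of -1.15 ± 0.20 (SE; limma adjusted p = 0.0215). Nfkbiz, a nuclear inhibitor-like protein that is also in the immediate early list, stood at 43.9, 37.8 and 49.2 TPM and 67.4 to 103 TPM (difference -0.92 ± 0.15, limma adjusted p = 0.0213). The subunits Rela and Nfkb2 were at a dip without passing the test, with differences of -0.59 ± 0.16 and -0.84 ± 0.21 (SE; limma adjusted p = 0.0975 and 0.0813), and so was Birc3, an inhibitor of cell death, with -0.86 ± 0.21 (limma adjusted p = 0.0754).

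Irf1 (chromosome 11, 53770014 to 53778374, plus strand, ENSMUSG00000018899.16), a transcription factor of interferon signalling, stood at 22.1, 27.6 and 29.9 TPM at 12 months, 50.3, 52.8 and 59.5 TPM at 2 months and 67.6, 74.1 and 52.3 TPM at 24 months. Every 12-month value lay below every other value, with differences of -1.01 ± 0.18 from 2 months and -1.25 ± 0.18 from 24 months (SE; limma adjusted p = 0.0327 and 0.0255). It was the only called member among 34 interferon response genes, of which 3 were at a dip and none at a peak, with a median of -0.43, made up of -0.09 against 2 months and -0.67 against 24 months. The shares over all genes tested were 1.01% called and 4.44% at a dip. Arid5a, an RNA-binding protein that stabilises inflammatory transcripts, stood at 23.97, 20.1 and 27.2 TPM at 12 months and 43.4 to 74.9 TPM elsewhere. For Arid5a the log2 difference was -1.14 ± 0.18 (SE; limma adjusted p = 0.0158). None of 27 chemokine and cytokine genes was called, with a median of -0.47 and a lowest limma adjusted p of 0.09. Their median was 0.05 against 2 months and -0.95 against 24 months.

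A kappaB site, the element bound by NF-kB, was present in 1 of the 2 RefSeq windows of Irf1, and in 10.9% of the windows of called-lower genes, 8.2% of those of called-higher genes and 7.25% of all windows. The window (chr11:53769764-53770013, plus strand) is shown 5′ to 3′ with the site, at positions -13 to -4, in capitals.
Irf1: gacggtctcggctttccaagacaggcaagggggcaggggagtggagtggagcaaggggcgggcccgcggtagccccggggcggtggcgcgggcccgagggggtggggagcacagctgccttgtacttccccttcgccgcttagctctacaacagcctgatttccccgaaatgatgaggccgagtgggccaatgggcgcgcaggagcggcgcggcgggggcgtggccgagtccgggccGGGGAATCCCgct

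Cholesterol synthesis genes, which are transcribed under the factor SREBP2 when sterols are low, had the lowest list median, -0.67. Of 23 tested, 5 were called lower and none higher, 7 were at a dip and none at a peak, and 22 had a negative difference. Among all genes tested, 0.448% were called lower and 4.44% were at a dip. Cyp51, which removes a methyl group from lanosterol, stood at 32.5, 27.9 and 35.05 TPM at 12 months, 58.4, 68.7 and 76.2 TPM at 2 months and 55.8, 46.97 and 62.4 TPM at 24 months (difference -0.92 ± 0.15, limma adjusted p = 0.0202), and its exons overlap Akap9. Mvd, an enzyme of the mevalonate pathway, stood at 10.3, 10.7 and 12.5 TPM at 12 months and 18.6 to 28.2 TPM elsewhere. Mvd had a log2 difference of -0.99 ± 0.17 (SE; limma adjusted p = 0.0234).

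Fdps, which makes farnesyl diphosphate and is the target of bisphosphonate drugs, stood at 98.3, 123 and 78.9 TPM at 12 months, 157, 161 and 159.98 TPM at 2 months and 183, 169 and 205 TPM at 24 months. For Fdps the log2 difference was -0.79 ± 0.14 (SE; limma adjusted p = 0.029). Sqle, squalene epoxidase, stood at 25.8, 23.6 and 31.1 TPM at 12 months and 39.2 to 59.7 TPM elsewhere. Sqle had a log2 difference of -0.79 ± 0.17 (SE; limma adjusted p = 0.0496). Insig1, which holds SREBP in the endoplasmic reticulum, was not called (difference -0.77 ± 0.20, limma adjusted p = 0.0987). The summed level of the list was 620.3 to 747 TPM at 12 months, 925 to 1147 TPM at 24 months and 1104 to 1311 TPM at 2 months, with no overlap of 12 months and the others. Without library 1 of 24 months 8 members were called lower, and with single libraries left out the number ranged from 0 to 8. It was 0 without library 1 of every age.

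Circadian clock genes, a feedback loop in which REV-ERB and PER and CRY proteins repress transcription at different times of day, stood on both sides of the other ages. Of 17 tested, 2 were called lower, 3 were at a dip and 3 at a peak, and the median was -0.03, with a sign that turned under the median of ratios scaling (0.04). The shares over all genes tested were 0.448% called lower, 4.44% at a dip and 3.06% at a peak. Nr1d1 (chromosome 11, 98767932 to 98775333, minus strand, ENSMUSG00000020889.11), which encodes the repressor REV-ERB alpha, stood at 51.04, 26.1 and 29.7 TPM at 12 months, 83.1, 119 and 134 TPM at 2 months and 119, 146 and 95.96 TPM at 24 months. Its differences were -1.66 ± 0.26 from 2 months and -1.77 ± 0.26 from 24 months (SE; limma adjusted p = 0.017 and 0.0255), and its exons overlap those of Thra on the other strand, so reads of the 2 genes cannot be told apart. Bhlhe40, a repressor of CLOCK and BMAL1 that hypoxia and other stimuli also induce, stood at 367, 337 and 335 TPM at 12 months and 395 to 724 TPM elsewhere. Bhlhe40 had a log2 difference of -0.70 ± 0.13 (SE; limma adjusted p = 0.031).

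Nr1d2, the paralogue of Nr1d1, was at a dip with 7.97, 6.62 and 9.62 TPM at 12 months and 12.7 to 21.8 TPM elsewhere and did not pass the test (difference -0.90 ± 0.21, limma adjusted p = 0.0631). Ciart, a repressor of the same loop, was at a peak with 14.7, 11.1 and 8.43 TPM at 12 months and 3.52 to 7.13 TPM elsewhere. For Ciart the log2 difference was 0.99 ± 0.25 (SE; limma adjusted p = 0.0841). Cry1 was at a peak with 21.8, 18.3 and 22.3 TPM against 9.41 to 16.6 TPM (limma adjusted p = 0.13), and Bhlhe41 with 8.596, 9.23 and 9.698 TPM against 3.47 to 8.05 TPM (limma adjusted p = 0.313). Clock and Per1 were neither at a peak nor at a dip, with limma adjusted p of 0.722 and 0.602. The labels give no hour of tissue collection.

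Genes of the cell surface, clotting and matrix were also among the dips. Thbd, thrombomodulin, which turns thrombin towards the activation of protein C, stood at 5.07, 3.01 and 4.84 TPM at 12 months, 8.01, 6.099 and 9.43 TPM at 24 months and 15.7, 20.3 and 16.7 TPM at 2 months. Thbd had a log2 difference of -1.28 ± 0.22 (SE; limma adjusted p = 0.0215). Plaur, the receptor of urokinase, stood at 75.9, 69.4 and 92.2 TPM at 12 months and 118 to 199 TPM elsewhere. For Plaur the log2 difference was -1.03 ± 0.15 (SE; limma adjusted p = 0.011). These were the 2 called members of 27 complement and coagulation genes, where 1.01% of all genes tested were called. Outside the lists, Prelp, a leucine-rich proteoglycan of cartilage, stood at 173, 180.3 and 210.2 TPM at 12 months, 252, 224 and 264 TPM at 24 months and 463, 438 and 469.7 TPM at 2 months, an order of 12, 24 and 2 months without overlap (difference -0.84 ± 0.12, limma adjusted p = 0.00962). Tgm2, a transglutaminase that crosslinks matrix proteins, stood at 40.1, 25.7 and 33.9 TPM at 12 months and 54.7 to 88.8 TPM elsewhere. Tgm2 had a log2 difference of -1.03 ± 0.17 (SE; limma adjusted p = 0.0213).

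Regulators of other signalling pathways were called singly. Hes1, a transcriptional target of Notch, stood at 106, 70.2 and 61.2 TPM at 12 months, 138, 157 and 201 TPM at 2 months and 153, 182 and 154 TPM at 24 months, with differences of -1.08 ± 0.21 and -1.07 ± 0.21 from 2 and 24 months (SE; limma adjusted p = 0.0434 and 0.0548), and was the called member among 8 Notch genes. Skil, which encodes SnoN, an inhibitor of SMAD proteins, stood at 31.8, 20.3 and 35.6 TPM at 12 months and 43.7 to 90.7 TPM elsewhere. For Skil the log2 difference was -1.07 ± 0.18 (SE; limma adjusted p = 0.0213). Tcf7l2, a nuclear partner of beta-catenin, stood at 8.92, 8.11 and 9.35 TPM at 12 months, 10.3, 15.1 and 11.8 TPM at 24 months and 20.6, 23.2 and 26.4 TPM at 2 months. Tcf7l2 had a log2 difference of -0.88 ± 0.18 (SE; limma adjusted p = 0.047). Skil and Tcf7l2 are in neither the TGF-beta and BMP list nor the Wnt list. None of the 36 tested members of the TGF-beta and BMP list and none of the 28 of the Wnt list was called. Only 1.01% of all genes tested were called. Rnpep, an aminopeptidase, and Bcs1l, a chaperone of respiratory complex III, were called lower outside the lists, with 8.68, 14.97 and 12.2 TPM against 24.4 to 29.6 TPM for Rnpep and 4.37, 5.49 and 4.39 TPM against 9.53 to 18.3 TPM for Bcs1l (limma adjusted p = 0.0158 and 0.0265).

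**Figure D4:**
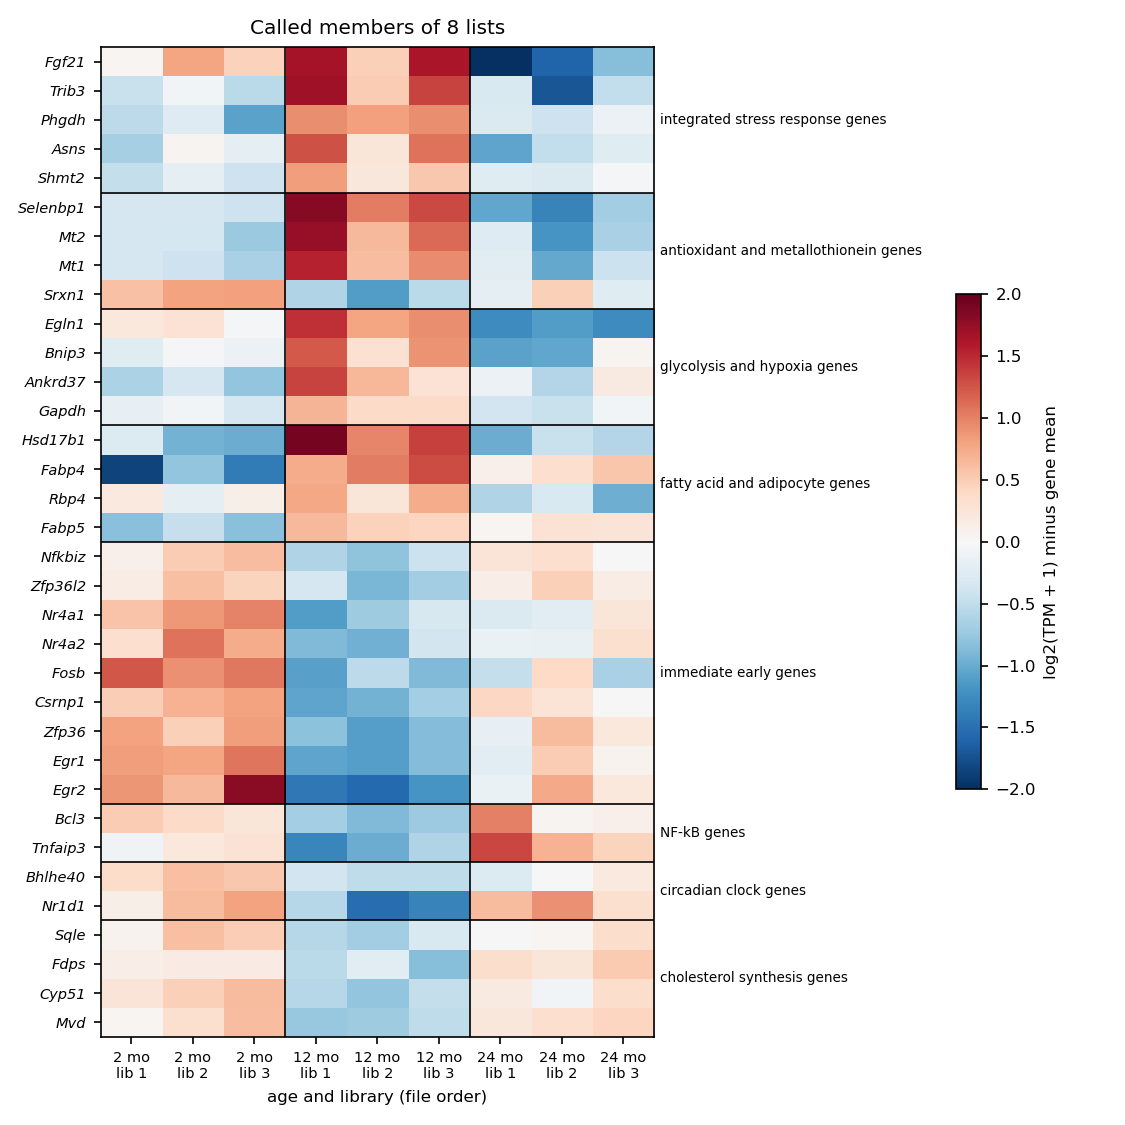
Deposited log2(TPM + 1) of called members of 8 gene lists minus each gene's mean over the 9 libraries (colour scale from -2 to 2), with libraries in columns by age and file order. The 12-month columns are red for the stress response, metallothionein, hypoxia and fatty acid genes and blue for the immediate early, NF-kB, clock and cholesterol genes and for Srxn1.

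Genes that define the skeletal lineages were not called. None of 23 chondrocyte genes, 14 genes of hypertrophic cartilage and 19 osteoblast genes passed, with medians of -0.11, -0.58 and -0.56, and none of them was at a peak or a dip. Only 1.01% of all genes tested were called, so by that share lists of this size may hold no called gene. A peak or a dip was found in 7.5% of all genes tested. The chondrocyte median joins opposite values, -0.53 against 2 months and 0.27 against 24 months. Chondrocyte genes summed to 48143 to 61883 TPM at 12 months, 84029.5 to 93041 TPM at 2 months and 38372 to 69459.8 TPM at 24 months, so 12 months lay wholly below 2 months. The lowest limma adjusted p was 0.0759 among chondrocyte genes, for Chad, a leucine-rich cartilage protein, which stood at 1008, 482 and 735 TPM at 12 months, 1863, 2087 and 2476 TPM at 2 months and 647, 863 and 985 TPM at 24 months. Its 12-month values lay below all 2-month values and overlapped those of 24 months. Ihh, the hedgehog ligand of hypertrophic cartilage, ranged from 27.9 to 148 TPM within the 12-month libraries alone, against 126 to 287 TPM elsewhere (limma adjusted p = 0.215). Bglap, the osteoblast hormone osteocalcin, ranged from 0.6405 to 9.62 TPM at 12 months and 4.65 to 29.5 TPM elsewhere (limma adjusted p = 0.168), and its near-identical copies make its level uncertain. Genes of mitosis and DNA replication, 25 of each, held no called gene and no peak or dip, and the same shares over all genes apply to them.

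Markers of further cell types of callus and marrow were low or did not separate 12 months from both other ages. The summed level of macrophage and monocyte markers was 42.4 to 73.9 TPM at 12 months against 46.9 to 68.03 TPM at 2 months and 59.3 to 92.7 TPM at 24 months, and 9 of the markers stayed under 1 TPM in every library. Among them C1qb, a complement subunit of macrophages, was at a peak, with 1.28, 6.12 and 2.37 TPM at 12 months, 0 in all libraries of 2 months and 0, 0.573 and 1.0003 TPM at 24 months, and did not pass the test (limma adjusted p = 0.0629). Pf4, a chemokine of platelets and macrophages, was called higher with 3.22, 3.19 and 5.06 TPM at 12 months, 0, 0.142 and 0.388 TPM at 2 months and 0, 0.722 and 1.86 TPM at 24 months (difference 1.75 ± 0.34, limma adjusted p = 0.0384), with no more than 0.785 TPM of Gp9 and 0.641 TPM of Ppbp in any library. All 4 tested platelet markers had a positive difference, with a median of 0.64, and the list summed to 28.7 to 46.4 TPM at 12 months, 20.6 to 30.8 TPM at 2 months and 16.97 to 28.2 TPM at 24 months. Smooth muscle and pericyte markers summed to 278 to 1008 TPM at 12 months, 299 to 503 TPM at 2 months and 1079.96 to 2396 TPM at 24 months, with library 2 the highest of 12 months. Erythroid markers summed to 222 to 928 TPM at 12 months, 152 to 339 TPM at 2 months and 73.5 to 966 TPM at 24 months, with wide overlap. The part of these markers in the differences above was not tested.

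Among the 81 called-higher genes, library 1was the highest of the 3 at 12 months for 52 and library 2 the lowest for 49. Among the 65 called-lower genes, library 3 was the highest of the 3 at 12 months for 41. Over all genes tested, library 1 was the highest of the 3 for 25.3%, library 2 the lowest for 44.6% and library 3 the highest for 46.9%.

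Of the 146 called genes (1.01% of the genes tested), 41 were members of the 45 lists. Leaving out each of libraries 1, 2 and 3 of 2 months in turn left 24, 15 and 14 called list members. Leaving out number 1 or 3 of 12 months left 12 and 15, and number 2 or 3 of 24 months 26 and 75. The lists were chosen with results of these data known, so their counts describe the data and are not independent evidence.

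**Figure D5:**
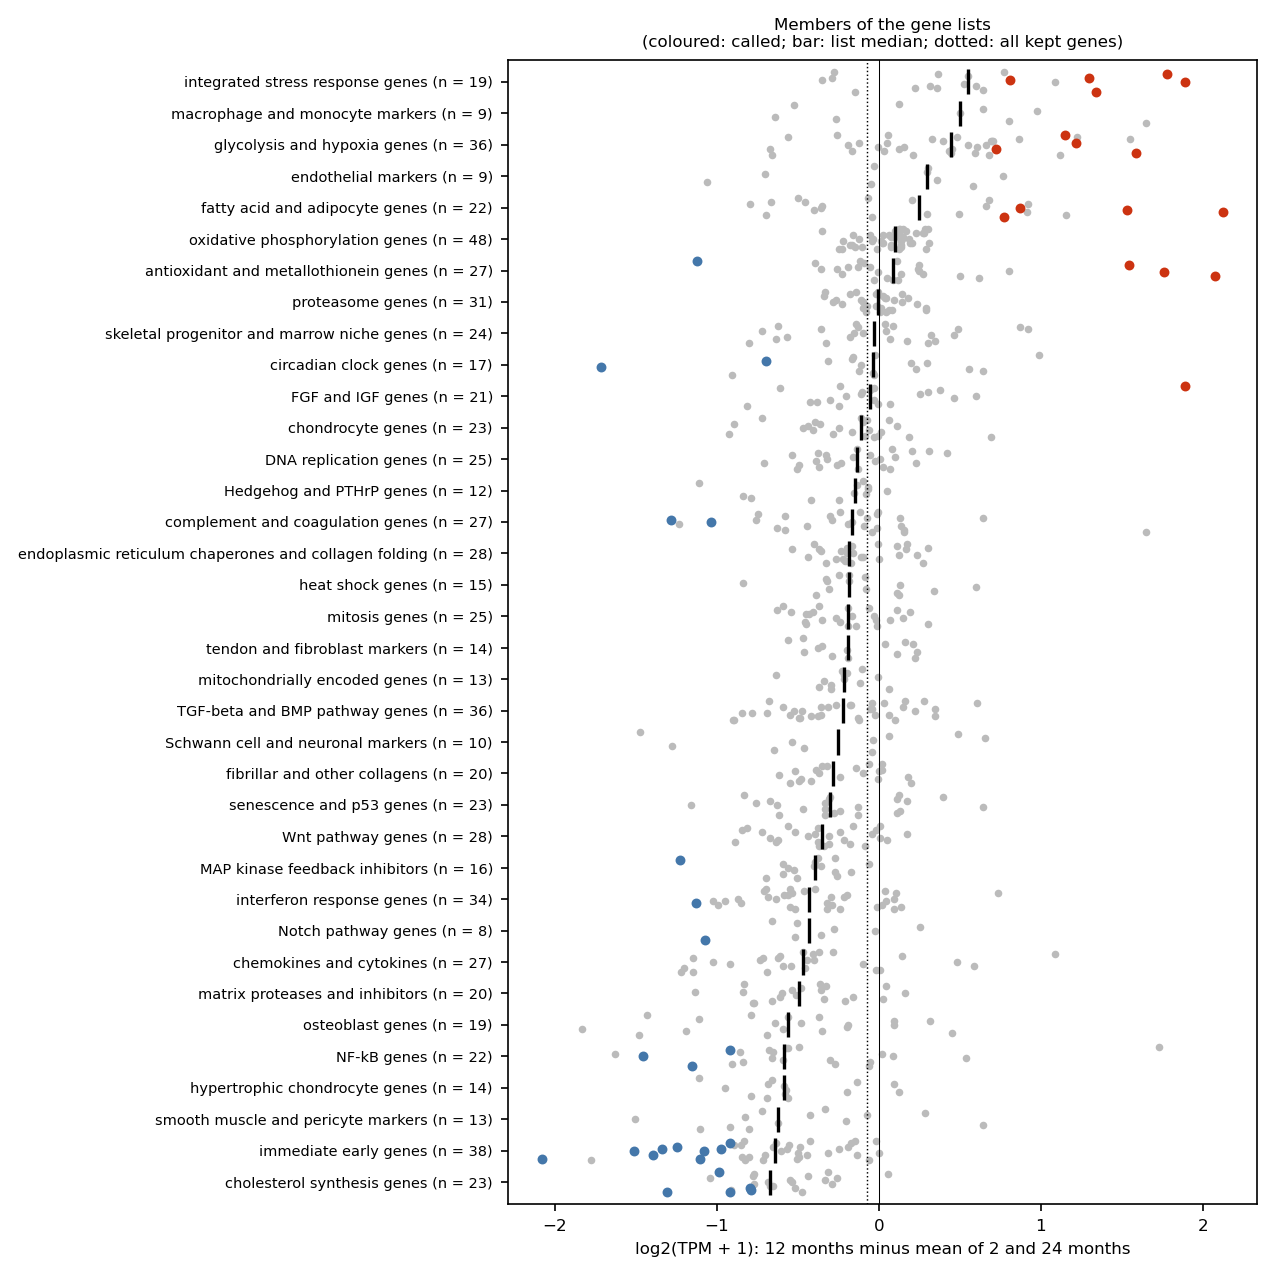
Log2 difference of every tested member of the 36 gene lists with at least 8 tested members, as 12 months minus the average of 2 and 24 months, with called members in red (higher) or blue (lower), the list median as a bar and the median of all genes, -0.07, as a dotted line. The integrated stress response list has the highest median, 0.55, and the cholesterol synthesis list the lowest, -0.67, and lists without a coloured point hold no called gene.

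The promoter windows of called genes were also read for 4 further motifs, on both strands. RefSeq held windows for 53 of the 67 named called-higher genes and 42 of the 61 named called-lower genes. All windows are those of 27025 genes, which include genes that were not tested, so their shares are not those of the tested genes. ACGTG, the core bound by hypoxia-inducible factors, was in 29.5% of the windows of called-higher genes, 18.2% of those of called-lower genes and 16.6% of all windows, and Egln1, Bnip3 and Ankrd37 were among the genes with it. TGATGNAA was in 8.2% of the windows of called-higher genes (Asns, Fgf21, Hax1, Pck2 and Rbp4), 3.64% of those of called-lower genes and 3.45% of all. GCGNGGGCG, bound by EGR proteins, was in 16.4% of the windows of called-lower genes, 4.92% of those of called-higher genes and 4.7% of all, and Nr4a1, Nr4a2, Fosb, Zfp36, Irf1 and Plaur were among the called-lower genes with it. TCACNCCAC, a sterol response element, was in 1.82%, 1.64% and 1.05% of the windows of called-lower genes, called-higher genes and all genes, and windows were held for 2 of the 5 called cholesterol genes. TGACGTCA, the cAMP response element, was in 5.45% of the windows of called-lower genes, in none of the 61 of called-higher genes and in 1.55% of all. The core TGCGCNC or TGCACNC was in 34.4% of the windows of called-higher genes and 29.1% of those of called-lower genes. TGACGTCA and ACGTG share the letters ACGT. A match describes the letters in the window and does not show that a factor bound there.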

How the data were processed

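RNA-seq of mouse skeletal stem cells sorted from femoral fracture callus was analysed in 9 libraries, 3 each at 2, 12 and 24 months of age. The authors deposited log2(TPM + 1) values in a single table whose columns are headed by age. The submitters' processing notes name Salmon and the build GRCm38.p6 without versions or roles, and neither they nor the labels give the annotation, the strand setting or the read totals of the libraries, so depth is unknown and no count model was fitted. The labels' protocols describe paired reads of 76 bases.

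Genes that reached 1 TPM in 3 or more of the 9 libraries were fitted with limma 3.58.1 in R 4.3.3, with a mean per age and a variance trend, and p-values were adjusted by the Benjamini-Hochberg method over all genes tested, with 0.05 as threshold. Fold changes are differences of log2(TPM + 1), so those of low genes are understated. The contrast was 12 months minus the average of 2 and 24 months, and each outer age was also compared alone. The code was tested on simulated data. Libraries are numbered 1 to 3 in the order of the columns, which carry no replicate number, so they could not be matched to the numbers in the sample titles and no pairing was used.

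Genes were named as the 15 per direction with the largest difference among called peaks or dips, the 5 per direction called against each outer age alone, and up to 4 per list with the smallest p. Predicted models, pseudogenes, ribosomal protein genes and symbols turned into dates were counted and not named. Some genes are not reported here. Others are said to be picked out after the values were seen or are list members and neighbours of these. The comparison, the 45 lists and the motifs were chosen with earlier results of these data known. Gene positions are from GENCODE release M21 (GRCm38) and promoter sequences from RefSeq (GRCm38.p6). Alternatives changed the offset, the filter, the scaling, the variance model, the contrast, the threshold and the libraries, and 4 were chosen after seeing the data: protein-coding genes only, a correction for transcript length and GC content, the first library of every age left out, and genes that passed the filter only at 12 months left out.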

Additional observations from a re-analysis of the deposited data

How the results depend on the processing

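All 127 called genes checked singly kept their direction in all 26 alternatives tried, and of these only G0s2 and Selenbp1 stayed called in every one. The number of called genes, 146 (81 higher, 65 lower), was 91 (48 and 43) with an offset of 0.1 TPM, 6 (5 and 1) without a filter, 26 (19 and 7) without the variance trend, 423 (203 and 220) with array weights, 70 (44 and 26) with the other 6 libraries as 1 group and 398 (177 and 221) at a threshold of 0.10. With protein-coding genes only it was 221 (118 lower), and without the first library of each age 14 (7 and 7). The called-higher count was 122 with median of ratios scaling and 131 with the length and GC trends removed, and the called-lower count 123 with a filter of 5 TPM. With single libraries left out the counts ranged from 26 to 284 in all, 13 to 145 higher and 13 to 139 lower. For 12 against 2 months, 105 calls became 57 (offset 0.1), 8 (no filter), 15 (no trend), 370 (array weights), 15 (no first libraries) and 17 to 220 with single libraries left out. For 12 against 24 months, 66 calls became 43, 0, 4, 336 and 9 in the same order, 2 to 345 with single libraries left out, 100 with median of ratios, 129 with protein-coding genes and 111 with length and GC trends removed. Limma without a filter left 0 calls there although 2051 of the genes tested had an unadjusted p under 0.05 with the filter. The 22 calls shared by both became 14, 0, 2, 108 and 5 in that order, 1 to 54, 37, 42 and 41. For 24 against 2 months, 23 calls became 5, 0, 3, 295 and 0, and 1 to 430. Peaks and dips together, 1088, became 1258 to 2251 with single libraries left out and 3038 without the first library of each age. Peaks, 444, became 500 to 925, 1158 and, with median of ratios, 681. Dips, 644, became 741 to 1582 and 1880, and 471 with median of ratios, and leaving out a library widens both classes by construction. Called list members, 41, became 3 (no filter), 9 (no trend), 87 (array weights), 22 (1 group), 83 (threshold 0.10), 62 (protein-coding genes), 6 (no first libraries) and 12 to 75 with single libraries left out. Where the cause is not given by the construction, it was not tested. No paired analysis was possible because the columns carry no replicate number that could be matched to the numbered sample titles. Depth per library is unknown, so the counting error of low genes such as Hsd17b1 or Mir23a could not be estimated.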
